A study of Mus musculus with 8 samples.

Results

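The genes described here are 32 mouse genes of fatty acid activation and oxidation. They were chosen by name from the 54146 genes counted in bulk RNA-Seq of macrophages of epididymal white adipose tissue (eWAT). The data comprised 8 libraries, since each of 4 mice gave 1 library per population. FCGR4 is an activating receptor for IgG antibodies. The comparison asks how the transcriptome of macrophages that carry it differs from that of macrophages that do not. All the mice were C57Bl6, had eaten a high-fat, high-cholesterol (HFHC) diet freely for 24 weeks and were then kept for 2 weeks on short-term caloric restriction (stCR), with 30% less food. There was no unrestricted group among these libraries, so a difference between the populations is one within restricted obese mice. Both populations passed the same gate (CD45+, CD3-, B220-, Ly6G-, SiglecF- and CD11b+) and were parted by FCGR4 alone, and the gate itself holds no macrophage-specific surface protein. Whether LDL receptor deficiency was induced in these mice is not given in the sources used here.

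Fatty acids enter metabolism as acyl-CoA, made by long-chain acyl-CoA synthetases. The carnitine shuttle carries the acyl chain into the mitochondrial matrix, where repeated rounds of dehydrogenation, hydration, dehydrogenation and thiolysis release acetyl-CoA, and the electrons reach the respiratory chain partly through the electron transfer flavoprotein. Peroxisomes shorten very long and branched chains. PPARα and the PGC-1 coactivators are known as transcriptional regulators of these enzymes in liver, muscle and brown fat, and fatty acid oxidation in macrophages has been tied to their alternatively activated state.

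None of these genes passed the threshold between FCGR4+ and FCGR4- macrophages, an adjusted *P* value under 0.1 in the quasi-likelihood test of edgeR, fitted with mouse as a block. Of the 32 genes, 31 had enough counts to be tested (at least 10 counts in at least 4 libraries), and the count of genes called was 0 higher and 0 lower in FCGR4+ cells. Of all 17095 genes tested, 1.27% were called, 0.0819% higher and 1.19% lower. DESeq2 also called 0 of the 31 in each direction, beside 1.12% of all genes higher and 4.87% lower. At an unadjusted *P* value under 0.05 in edgeR, 1 gene was higher (*Ehhadh*) and 0 were lower, beside 3.1% and 6.67% of all genes. A log2 fold change above 0 was found for 20 of the 31, beside 49.7% of all genes. The median log2 fold change of the 31 was 0.07, and that of all genes was -0.0025.

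The precision behind these counts can be read from the intervals of single genes. The 95% interval of the fold change lay within 2-fold in either direction for 28 of the 31 genes, and within 1.5-fold for 22. Over all genes these shares were 56.2% and 25.5%. Among the 8088 genes above 10 normalized CPM (CPM, counts scaled to the library's size with TMM factors) the shares were 89.8% and 49.5%, beside 27 and 21 of the 27 fatty acid genes above that level. The 3 genes whose interval reached past 2-fold were *Ehhadh*, *Ppargc1a* and *Ppargc1b*, which had the lowest levels per length of the 31.

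**Figure D1:**
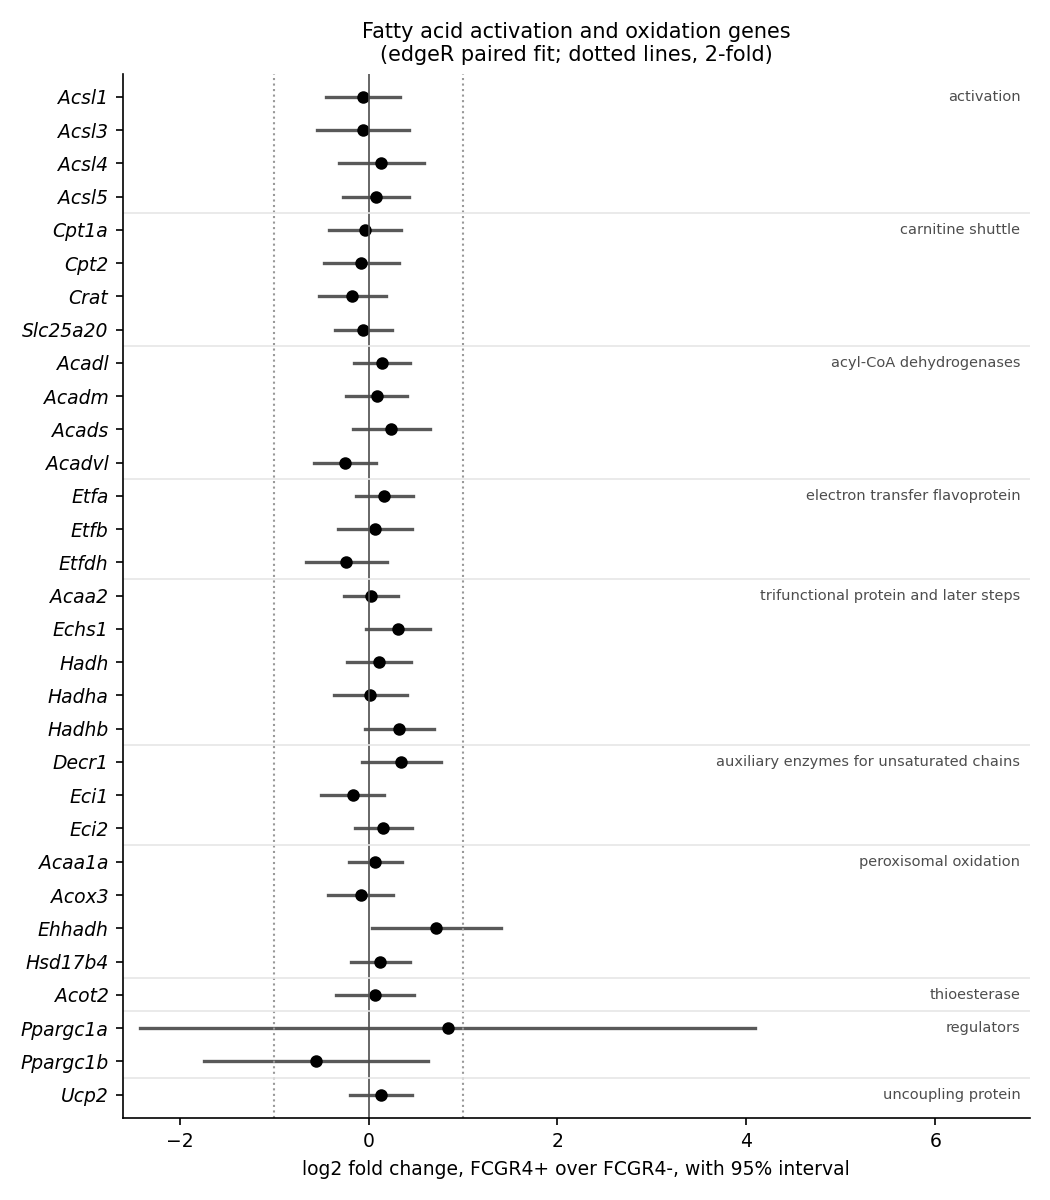
Log2 fold change (FCGR4+ over FCGR4-, horizontal axis) of the 31 tested genes with its 95% interval from the edgeR paired fit, ordered by role, with dotted lines at 2-fold. The interval of 28 genes stays between the dotted lines, and only that of *Ehhadh*, from 0.03 to 1.40, leaves out 0 before adjustment.

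The libraries held 35992794 to 66856746 counts each. The sort and the identity of the cells were checked first. *Fcgr4* itself measured 215, 139, 208 and 236 CPM in the FCGR4+ libraries of mice 1 to 4, and 48.5, 52.2, 81.1 and 82.9 CPM in their FCGR4- libraries. The difference was 1.61 ± 0.17 on the log2 scale (SE; edgeR adjusted *P* = 0.0162), and *Fcgr4* RNA was thus lower but not absent in FCGR4- cells. The summed level of 12 macrophage markers was 28384 to 53018 CPM in FCGR4+ and 23572 to 47593 CPM in FCGR4- libraries, with the FCGR4+ library the higher in 4 of 4 mice. *Lyz2* (lysozyme), at 16762 to 39810 CPM in FCGR4+ and 14387 to 38655 CPM in FCGR4- libraries, supplied most of that sum. The log2 fold change was above 0 for 10 of the 12, while those of *Csf1r* (-0.21) and *Cd14* (-0.42) were below 0, and edgeR called 0 of the 12 (6 had an unadjusted *P* value under 0.05) and DESeq2 6. For several other cell types, the FCGR4+ library of each mouse had the lower sum of markers. Mast cell and basophil markers summed to 14.5 to 30.5 CPM in FCGR4+ and 391 to 2147 CPM in FCGR4- libraries, neutrophil markers to 124 to 586 and 413 to 2782 CPM, and fibroblast and preadipocyte markers to 145 to 277 and 360 to 1448 CPM. The summed levels of dendritic cell markers (8.99 to 22.1 and 48.1 to 118 CPM) and of T and NK cell markers (4.73 to 12.7 and 23.3 to 68.9 CPM) were among them, as were those of mesothelial markers (0.915 to 7.93 and 4.44 to 36.2 CPM). Sums were not lower throughout for B cell markers (11.98 to 19.2 and 7.30 to 32.7 CPM), endothelial markers (5.30 to 15.7 and 10.3 to 13.5 CPM) and brown adipocyte markers (0.944 to 4.504 and 1.64 to 2.74 CPM), which were higher in FCGR4+ cells in 1, 1 and 2 of the 4 mice. The 6 defining markers of adipocytes, cells that also use these enzymes (*Adipoq*, *Plin1*, *Plin4*, *Cidec*, *Lep* and *Adig*), summed to 6.22 to 8.57 CPM in FCGR4+ and 7.21 to 11.3 CPM in FCGR4- libraries, lower in 4 of 4 mice, although *Adipoq* (0.27) and *Adig* (0.65) had positive log2 fold changes. The full list of 14 adipocyte genes summed to 2574 to 5606 CPM in FCGR4+ and 1512 to 4606 CPM in FCGR4- libraries, with FCGR4+ cells the higher in 4 of 4 mice, and most of this sum was *Lpl*. None of the markers in these lists was at 0 in every library. The part of any of these cells in the values below was not tested, and in bulk samples fewer cells of a type and less RNA per cell cannot be told apart.

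Levels can be compared between genes only per length, and the order given here is of normalized CPM per kilobase of the deposited gene length. This length counts all annotated exon bases of a gene (1515 for *Acaa2*, 6989 for *Ucp2* and 8730 for *Hadha*), whichever transcripts the cells made. The order, and the shares and ratios per kilobase given below, hold on this scale. They were not checked against the lengths of the transcripts present. *Ucp2*, an inner-membrane carrier of the uncoupling protein family that is abundant in immune cells, led at 234 ± 23.3 in FCGR4+ and 214 ± 28.6 in FCGR4- cells (SD, n = 4). *Acaa2*, the mitochondrial thiolase, followed at 88.7 ± 11.95 and 87.2 ± 10.4. Next came *Etfa* (53.4 ± 5.18 and 47.4 ± 2.44), *Acadl* (47.2 ± 4.99 and 42.6 ± 2.07), *Etfb* (42.4 ± 8.72 and 39.9 ± 3.62) and *Cpt1a* (36.5 ± 14.7 and 35.6 ± 7.06). On this scale, the values of *Ucp2* and *Acaa2* in FCGR4+ libraries stood apart from those of the next gene, whereas from *Etfa* down to *Acadvl* each gene overlapped its neighbor in the order. The lengths include exon bases shared with other genes, where pairs were not counted, which lowers the values of *Etfb* (58.2% of its bases) and *Acadvl* (42.9%) most among these genes. Over the bases that overlap no other gene, a scale chosen after seeing the data, *Etfb* measured 102 ± 20.9 and 95.5 ± 8.67 CPM per kilobase and came second, with values that overlapped those of *Acaa2*, and *Acadvl* rose to 24.9 ± 1.58 and 29.7 ± 3.11 (SD, n = 4). The place of these genes in the order therefore depends on the length used. At the lower end, *Ehhadh* measured 1.34 ± 0.483 and 0.845 ± 0.363, *Ppargc1b* 0.375 ± 0.303 and 0.449 ± 0.238, and *Ppargc1a* 0.0739 ± 0.0653 and 0.0346 ± 0.0385. Without *Ucp2*, the summed level of the genes was 541, 565, 490 and 502 CPM per kilobase in FCGR4+ cells of mice 1 to 4 and 524, 517, 456 and 502 in FCGR4- cells. The FCGR4+ sum was the higher in mice 1 to 3, and in mouse 4 the sums were equal at this rounding. The means were 524 ± 34.8 and 499.8 ± 30.4 (SD, n = 4). These SDs are spreads between mice and not of the paired difference, which was not tested.

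**Figure D2:**
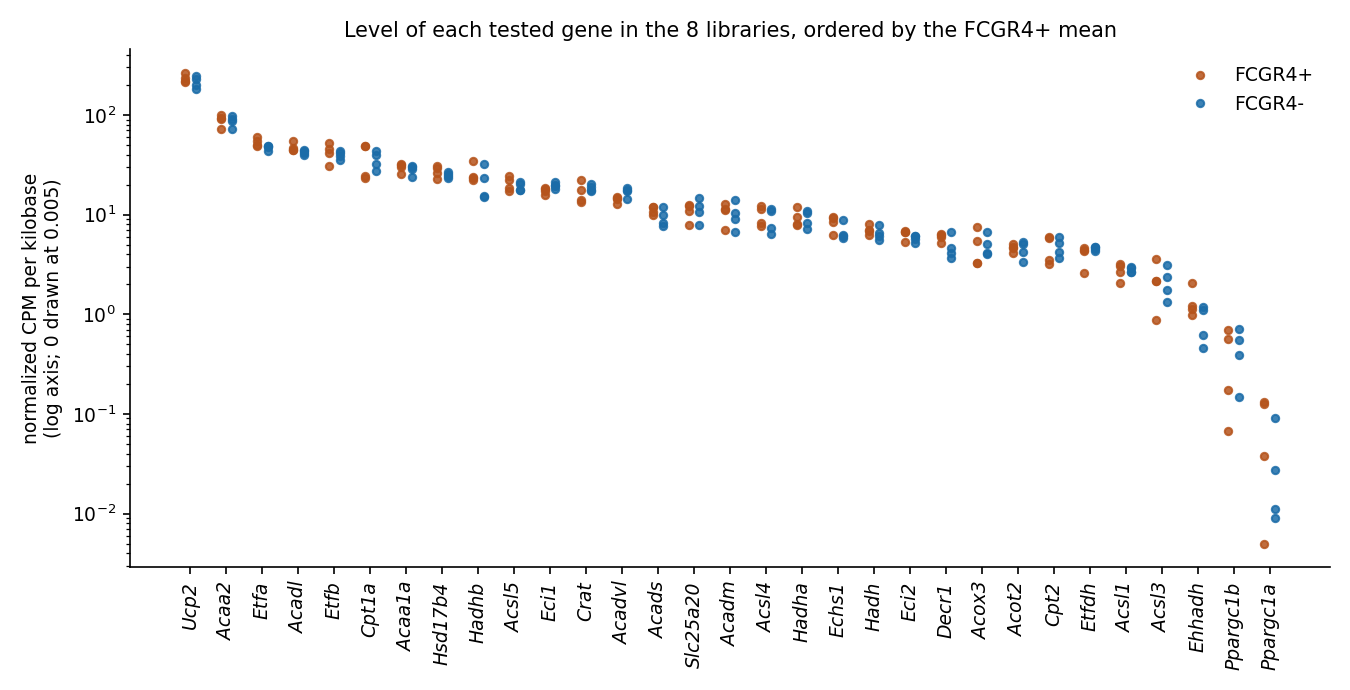
Normalized CPM per kilobase (over the deposited gene length, vertical log axis) of the 31 tested genes in each of the 4 FCGR4+ and 4 FCGR4- libraries, 1 point per library, ordered by the FCGR4+ mean. The points of both populations overlap along the whole order except for *Etfa*, and the regulators *Ppargc1b* and *Ppargc1a* have the lowest means, with *Ppargc1b* overlapping the lowest enzyme, *Ehhadh*, in FCGR4- libraries.

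Activation is the first step, and its 4 measured synthetases had log2 fold changes between -0.06 and 0.14. *Acsl1*, the main synthetase of adipocytes and liver, was at 31.6, 33.2, 21.3 and 27.7 CPM in the FCGR4+ libraries of mice 1 to 4 and at 27.5, 31.4, 30.7 and 27.5 CPM in the FCGR4- libraries. Only mouse 3 was lower in FCGR4+ cells, and the log2 fold change was -0.06 ± 0.16 (SE; edgeR adjusted *P* = 0.914). *Acsl5*, a synthetase of mitochondria and endoplasmic reticulum, had the largest part of the family's level. Per kilobase it made up 58.3% ± 3.83 of the summed synthetase level in FCGR4+ cells and 58.1% ± 5.997 in FCGR4- cells (SD, n = 4). *Acsl4*, which prefers arachidonic acid, made up 28.0% ± 6.63 and 27.0% ± 7.36, *Acsl1* 7.72% ± 1.18 and 8.39% ± 0.538, and *Acsl3* 6.01% ± 2.41 and 6.42% ± 2.38. These SDs are spreads between mice. Within mice, the share was the higher in FCGR4+ cells in 1 of 4 for *Acsl5*, *Acsl1* and *Acsl3*, and in 3 of 4 for *Acsl4*. The share of *Acsl4* was 37.7% in FCGR4+ cells of mouse 3 and 22.9% in those of mouse 2.

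**Figure D3:**
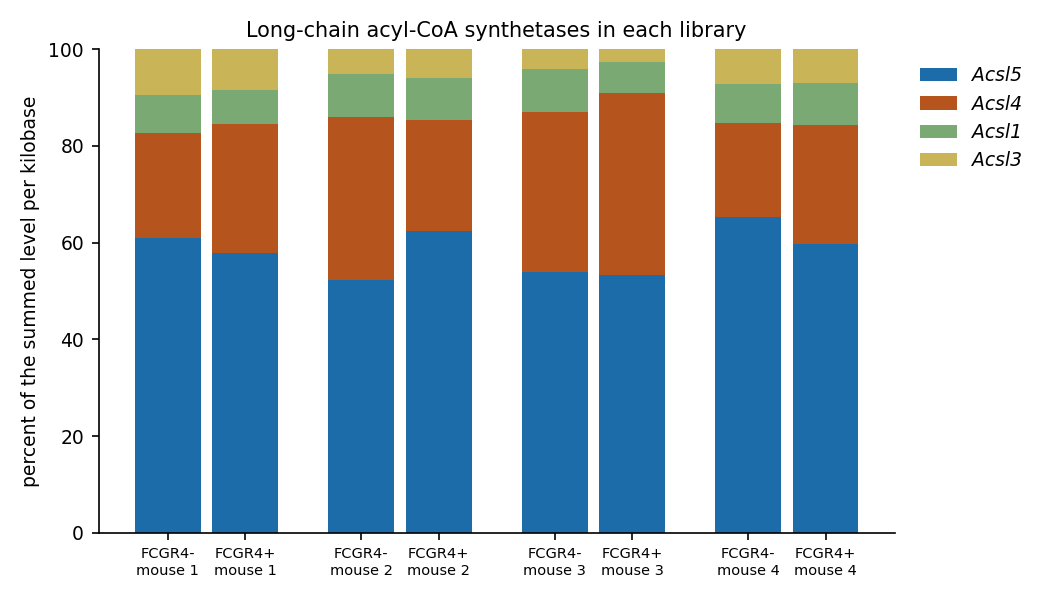
Share of *Acsl5*, *Acsl4*, *Acsl1* and *Acsl3* in their summed level per kilobase (vertical axis, percent), 1 bar per library, paired by mouse. *Acsl5* holds 52.4% to 65.2% of the sum in the 8 libraries, and its lowest and highest shares are both of FCGR4- libraries.

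The 4 genes of the carnitine shuttle all had log2 fold changes under 0, from -0.17 (*Crat*) to -0.04 (*Cpt1a*), and none passed the test. This sign depended on which mice were included. In mice 1 and 2 alone the 4 values were above 0 (from 0.0034 for *Slc25a20* to 0.25 for *Cpt1a*). *Cpt1a* was above 0 without mouse 3 (0.027), without mouse 4 (0.080) and with no replicate block (0.035). *Slc25a20* was so without mouse 3 (0.0056). *Cpt2* (-0.12 to -0.03) and *Crat* (-0.24 to -0.06) stayed under 0 whichever 1 mouse was left out. *Cpt1a* (mm10 chr19:3323301-3385732, plus strand) encodes the outer-membrane enzyme whose inhibition by malonyl-CoA sets the entry of long chains. It was measured at 211, 211, 99.2 and 106 CPM in FCGR4+ cells of mice 1 to 4 and at 171, 185, 119 and 138 CPM in FCGR4- cells. The FCGR4+ value was the higher in mice 1 and 2 and the lower in mice 3 and 4. The fold change of the paired fit was accordingly near 0 (-0.04 ± 0.16 log2, SE; edgeR adjusted *P* = 0.947), with a 95% interval from -0.42 to 0.35. *Cpt2*, the inner-membrane partner, and *Slc25a20*, the carnitine-acylcarnitine carrier, had log2 fold changes of -0.08 ± 0.17 and -0.06 ± 0.13 (SE). *Crat*, which moves short acyl groups onto carnitine, was lower in FCGR4+ cells in 3 of 4 mice (-0.17 ± 0.15 log2, SE). *Cpt1a* made up 98.5% to 99.95% of the CPT1 level per kilobase in the 8 libraries, and the remainder was *Cpt1c*. The muscle form *Cpt1b* was listed at 0 counts in each, but 81.4% of its exon bases overlap *Gm44502* in the deposited annotation, and pairs on such bases were not counted.

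Among the acyl-CoA dehydrogenases, which start each round of oxidation, the long, medium and short chain enzymes had positive fold changes and the very long chain enzyme a negative one. *Acadvl*, the very long chain enzyme, measured 38.9, 39.4, 40.1 and 34.7 CPM in FCGR4+ and 49.4, 38.6, 46.5 and 47.7 CPM in FCGR4- cells. It was lower in FCGR4+ cells in 3 of 4 mice, with the groups overlapping through mouse 2 (-0.25 ± 0.14 log2, SE; edgeR adjusted *P* = 0.593). In the deposited annotation 42.9% of its exon bases overlap *Dvl2*, and pairs on such bases were left out, so its counts come from the remainder of its exons. *Acadl* was higher in 4 of 4 mice (0.15 ± 0.13), while *Acadm* and *Acads* were higher in 3 of 4 (0.08 ± 0.14 and 0.24 ± 0.17, log2 with SE).

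The electron transfer flavoprotein takes up the electrons of these dehydrogenases, and ETFDH passes them to ubiquinone. *Etfa* was the only one of the 31 genes with every FCGR4+ library above every FCGR4- library, a pattern shown by 0.883% of all genes. The opposite pattern was shown by 0 of the 31 and by 3.02% of all genes. *Etfa* measured 90.7, 89.97, 110 and 101 CPM in FCGR4+ and 80.3, 89.8, 89.2 and 88.5 CPM in FCGR4- cells, and the lowest FCGR4+ and the highest FCGR4- value, both of mouse 2, were nearly equal. Its log2 fold change was 0.17 ± 0.13 (SE; edgeR adjusted *P* = 0.663). The partner subunit *Etfb* was higher in 2 of 4 mice (0.07 ± 0.17), and 58.2% of its exon bases overlap *Gm45233*. *Etfdh* was at 34.97, 33.0, 19.3 and 32.2 CPM in FCGR4+ and 32.03, 35.4, 34.1 and 35.9 CPM in FCGR4- cells. Mouse 3 alone lay far from its partner value, and the log2 fold change was -0.24 ± 0.18 (SE; edgeR adjusted *P* = 0.671).

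The trifunctional protein carries out the later steps for long chains, and its subunits are encoded head to head on chromosome 5. *Hadha* (mm10 chr5:30118304-30155162, minus strand) encodes the hydratase and dehydrogenase subunit and *Hadhb* (chr5:30155248-30184593, plus strand) the thiolase subunit. The stretch between their RefSeq start sites (GRCm38.p6 chr5:30154981-30155252, strand of *Hadhb*) is shown because both genes are transcribed away from it. Capitals mark its 18 CG pairs, and the deposited model of *Hadha* reaches into it.

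Hadha-Hadhb: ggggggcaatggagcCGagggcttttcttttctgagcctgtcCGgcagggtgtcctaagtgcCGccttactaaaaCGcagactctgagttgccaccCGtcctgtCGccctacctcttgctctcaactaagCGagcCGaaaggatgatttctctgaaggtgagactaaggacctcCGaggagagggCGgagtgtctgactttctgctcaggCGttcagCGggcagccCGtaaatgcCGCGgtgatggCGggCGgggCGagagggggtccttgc

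*Hadha* measured 103, 82.0, 69.3 and 70.2 CPM in FCGR4+ and 91.1, 62.9, 72.3 and 94.5 CPM in FCGR4- cells, so that it was higher in mice 1 and 2 and lower in mice 3 and 4 (0.02 ± 0.16 log2, SE; edgeR adjusted *P* = 0.974). *Hadhb* measured 226, 153, 147 and 156 CPM in FCGR4+ and 212, 100, 99.7 and 153 CPM in FCGR4- cells. It was higher in 4 of 4 mice, by little in mice 1 and 4, and the groups overlapped (0.32 ± 0.16 log2, SE; edgeR adjusted *P* = 0.549). The ratio of *Hadhb* to *Hadha* per kilobase was 2.89, 2.47, 2.82 and 2.94 in FCGR4+ and 3.08, 2.11, 1.82 and 2.14 in FCGR4- cells. The ratio was larger for FCGR4+ cells in 3 of 4 mice, although 19.7% of the 50-base words of *Hadhb* also occur in *Gm13910*, at which pairs mapping to both places were counted as well.

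Downstream, *Echs1*, the short chain hydratase, was at 52.2, 78.3, 77.4 and 69.8 CPM in FCGR4+ and 48.3, 73.6, 50.7 and 51.6 CPM in FCGR4- cells. It was higher in 4 of 4 mice, mostly in mice 3 and 4 (0.31 ± 0.15 log2, SE; edgeR adjusted *P* = 0.536). *Hadh*, the short chain hydroxyacyl-CoA dehydrogenase, and *Acaa2*, the thiolase, had log2 fold changes of 0.11 ± 0.14 and 0.02 ± 0.12 (SE). Unsaturated chains need auxiliary enzymes. Of these, *Decr1*, the dienoyl-CoA reductase, measured 24.6, 19.97, 23.2 and 24.01 CPM in FCGR4+ and 25.7, 17.9, 14.2 and 15.96 CPM in FCGR4- cells. Mice 3 and 4 were clearly higher in FCGR4+ cells and mouse 1 slightly lower (0.35 ± 0.18 log2, SE; edgeR adjusted *P* = 0.567). The isomerases differed in sign, with *Eci1* lower in 4 of 4 mice (-0.17 ± 0.14) and *Eci2* higher in 4 of 4 (0.16 ± 0.13, log2 with SE). *Etfa*, *Hadhb*, *Echs1* and the isomerases were singled out after their values were seen.

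In the peroxisomal group, *Ehhadh* (mm10 chr16:21761287-21787807, minus strand), which encodes the bifunctional enzyme of hydration and dehydrogenation, had the largest fold change of any enzyme among the 32 genes. It measured 6.12, 3.60, 2.92 and 3.36 CPM in FCGR4+ cells of mice 1 to 4 and 3.56, 3.33, 1.82 and 1.38 CPM in FCGR4- cells. It was higher in 4 of 4 mice, with groups that overlapped because mice 3 and 4 were low in both populations. The log2 fold change of 0.72 ± 0.29 (SE) had an adjusted *P* value of 0.488 in edgeR and 0.310 in DESeq2. Its level per kilobase stood at the percentile 39.3 of all tested genes in FCGR4+ cells, under that of every other enzyme listed. The other peroxisomal genes were more abundant and closer to 0, namely the thiolase *Acaa1a* (0.07 ± 0.12), the multifunctional enzyme *Hsd17b4* (0.13 ± 0.13) and the branched chain oxidase *Acox3* (-0.08 ± 0.15, log2 with SE). *Acot2*, a mitochondrial thioesterase that splits acyl-CoA, was near 0 as well (0.06 ± 0.18), and 27.7% of its 50-base words also occur in *Acot1*.

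**Figure D4:**
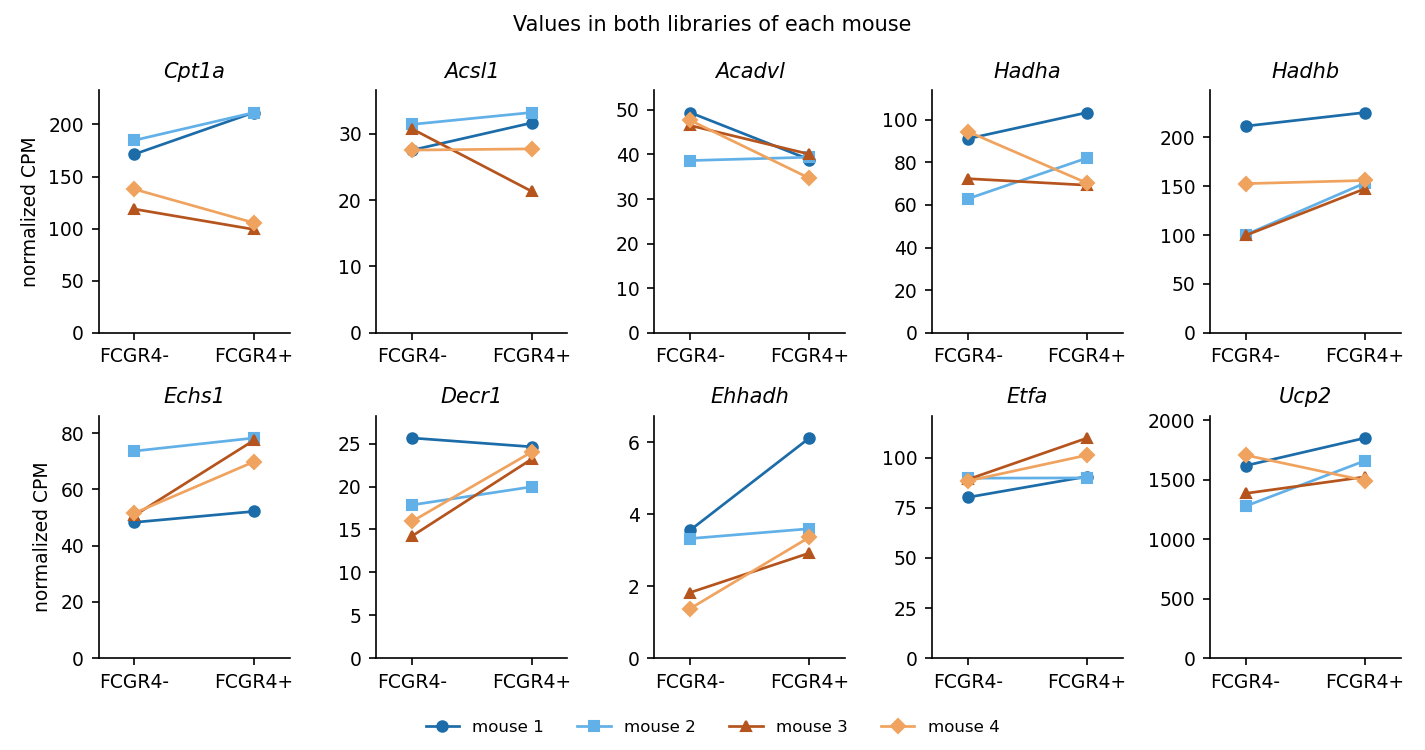
Normalized CPM (vertical axes from 0) of 10 named genes, with a line joining the FCGR4- and FCGR4+ library of each of the 4 mice. The lines of *Cpt1a* and *Hadha* rise in mice 1 and 2 and fall in mice 3 and 4, while those of *Hadhb*, *Echs1*, *Ehhadh* and *Etfa* rise in 4 of 4 mice, by little in some.

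The known regulators were scarce. *Ppara* had 2, 0, 0 and 1 counts in FCGR4+ libraries of mice 1 to 4 and 0, 0, 4 and 0 in FCGR4- libraries, and it was not tested. A count of 0 allows up to 3 counts, which is 0.0440 to 0.0883 CPM at these depths, for counting error only. *Ppargc1a*, encoding PGC-1α, had 49, 12, 0 and 42 counts in FCGR4+ and 39, 2, 10 and 5 counts in FCGR4- libraries, or 0.826, 0.250, 0 and 0.872 CPM against 0.6002, 0.0589, 0.181 and 0.0733 CPM. These values were spread over both populations, and the fitted fold change of 0.84 ± 1.38 log2 (SE; edgeR adjusted *P* = 0.842) had an interval from -2.42 to 4.09, so neither a large rise nor a large fall could be told from no change at this depth. *Ppargc1b*, encoding PGC-1β, measured 2.78, 2.25, 0.271 and 0.685 CPM in FCGR4+ and 1.55, 2.82, 0.596 and 2.18 CPM in FCGR4- cells. It was lower in FCGR4+ cells in 3 of 4 mice and low in mouse 3 in both (-0.56 ± 0.50 log2, SE; edgeR adjusted *P* = 0.711). In contrast, *Pparg* made up 96.6% to 99.6% of the summed PPAR level per kilobase in the 8 libraries. *Ucp2* was abundant, at 1852, 1661, 1525 and 1494 CPM in FCGR4+ and 1620, 1279, 1386 and 1708 CPM in FCGR4- cells, higher in 3 of 4 mice and lower in mouse 4 (0.13 ± 0.14 log2, SE; edgeR adjusted *P* = 0.752).

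Taking the direction in each mouse, 7 of the 31 genes were higher in FCGR4+ cells in 4 of 4 mice (*Acaa1a*, *Acadl*, *Eci2*, *Etfa*, *Echs1*, *Hadhb* and *Ehhadh*) and 1 was lower (*Eci1*), beside 8.35% and 10.4% of all genes. The genes come from the same 8 libraries and are not independent, and no test was made over the list. The median log2 ratio of the genes within a mouse was 0.09, 0.13, -0.01 and 0.03 in mice 1 to 4. Differences between mice were also measured. The mean of both libraries ranged over 0.43 (median, log2) between the mice and the mean ratio between populations was 0.13 in size (median), against 0.80 and 0.25 over all genes. The range between mice was larger than the mean ratio in size for 30 of the 31 genes and for 90% of all genes. *Acadvl* was the exception, with a range of 0.17 between mice and a ratio of -0.25.

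**Figure D5:**
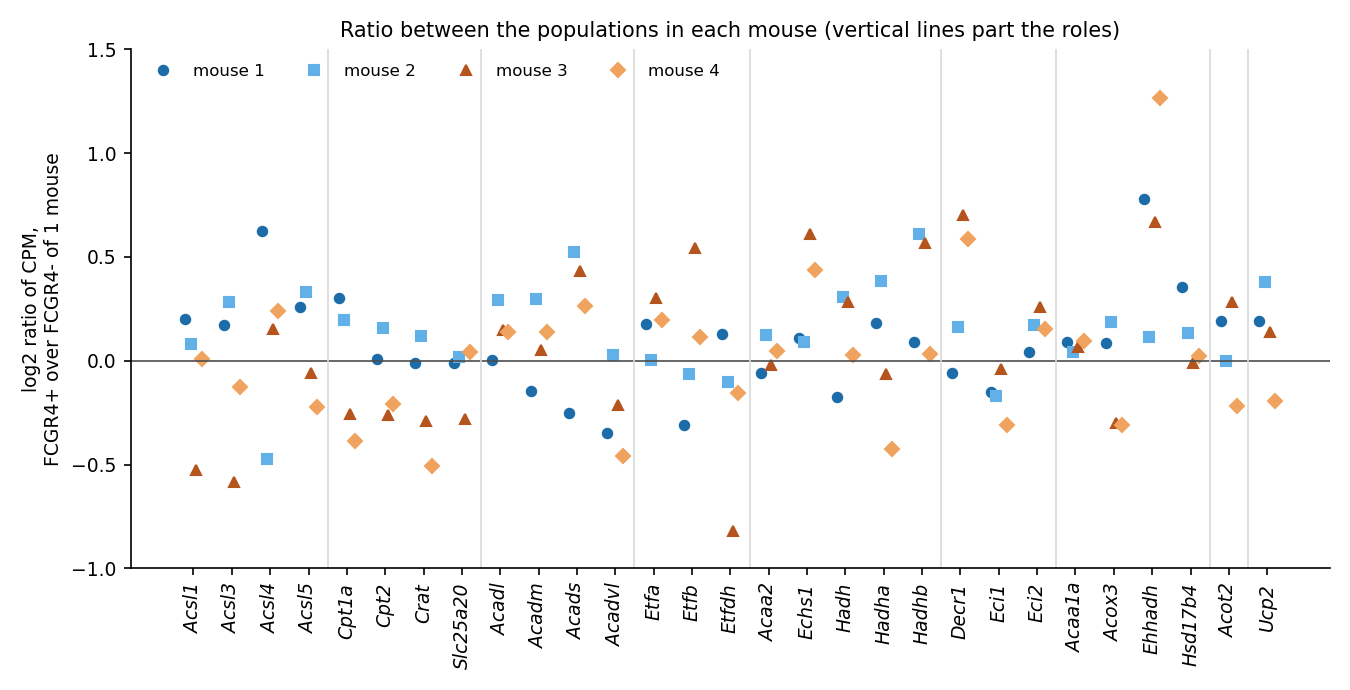
Log2 ratio of CPM, FCGR4+ over FCGR4-, within each of the 4 mice (vertical axis), for the 29 tested genes other than *Ppargc1a* and *Ppargc1b*, whose ratios rest on few counts. Points of the carnitine shuttle lie at or above 0 in mice 1 and 2, apart from -0.01 for *Crat* and *Slc25a20* in mouse 1, and mostly under 0 in mice 3 and 4.

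The animal identifiers of mice 1 and 2 start with another prefix than those of mice 3 and 4, and what the prefix stands for is not given in the sources used here. By this split, 6 genes (*Cpt1a*, *Cpt2*, *Hadha*, *Acox3*, *Acsl3* and *Acsl5*) were higher in FCGR4+ cells in mice 1 and 2 and lower in mice 3 and 4, a pattern of 9.92% of all genes. The opposite was seen for 1 gene (*Etfb*) and 7.08% of all genes. The mean log2 ratio of *Cpt1a* was 0.25 in mice 1 and 2 and -0.32 in mice 3 and 4. With the difference between the prefixes as a term of the edgeR fit, it had the lowest adjusted *P* value of the 31 genes, 0.325. None of the 17095 genes passed the threshold for this term in edgeR, while 13.8% of them, and 1 of the 31 (*Cpt1a*), had an unadjusted *P* value under 0.05. This fit was added after the data had been seen and rests on 2 mice per prefix. The percent of counts from mitochondrially encoded genes was also split by the prefix. It was 8.31, 4.35, 7.87 and 6.67 in FCGR4+ libraries of mice 1 to 4, and 9.88, 6.43, 5.21 and 4.13 in FCGR4- libraries. FCGR4+ cells had the lower percent in mice 1 and 2 and the higher in mice 3 and 4. Its part in these patterns was not tested.

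The surrounding pathway was followed with 88 other genes of fatty acid uptake, activation, oxidation and their regulation, of which 79 were tested. In edgeR 0 were called higher and 0 lower, beside 0.0819% and 1.19% of all genes. At an unadjusted *P* value under 0.05, 6 were higher and 6 lower, beside 3.1% and 6.67% of all genes. DESeq2 called 2 higher and 3 lower, beside 1.12% and 4.87%. The genes higher with DESeq2 were *Lpl*, lipoprotein lipase, which releases fatty acids from lipoproteins, and *Pparg*, a nuclear receptor of lipid storage and macrophage activation. *Lpl* was higher in 4 of 4 mice at 5462, 2447, 3169 and 3435 CPM in FCGR4+ and 4443, 1596, 1427 and 2537 CPM in FCGR4- cells (0.62 ± 0.17 log2, SE; adjusted *P* = 0.233 in edgeR and 0.0172 in DESeq2). *Pparg* was also higher in 4 of 4 mice, with a log2 fold change of 0.64 ± 0.18 (SE; adjusted *P* = 0.262 in edgeR and 0.0399 in DESeq2). *Lpl* is listed among the 14 adipocyte genes too, whose sum was the higher in FCGR4+ cells of 4 of 4 mice and consisted mostly of *Lpl*, while the sum of the 6 defining markers was the lower in 4 of 4, and the part of adipocyte RNA in the value of *Lpl* was not tested. Over the 12 genes of uptake and lipolysis, including *Cd36* and the fatty acid binding proteins, the median log2 fold change was 0.34, and 9 were above 0, beside a median of -0.0025 over all genes. The other sublists had medians of -0.32 (activation and carnitine, 4 of 10 above 0), -0.20 (thioesterases, 2 of 6), -0.04 (regulators, 9 of 19), -0.02 (mitochondrial oxidation, 8 of 18) and 0.08 (peroxisomal oxidation, 10 of 14).

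The genes lower with DESeq2 included *Acsbg1*, an acyl-CoA synthetase of the bubblegum type, and *Acot7*, a cytosolic thioesterase. Both had every FCGR4+ library under every FCGR4- library. *Acsbg1* had a log2 fold change of -2.76 ± 0.73 (SE; adjusted *P* = 0.224 in edgeR and 0.00129 in DESeq2) and *Acot7* one of -0.49 ± 0.15 (SE; 0.303 and 0.0743). The markers of mast cells, neutrophils, dendritic cells and fibroblasts were lower in the same libraries, by the sums given above, and their part in these values was not tested. The highest fold changes of the 79 genes were those of *Acot4* (0.96 ± 0.61) and *Fabp4* (0.70 ± 0.28, log2 with SE), neither of which passed in either tool.

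The promoters of the genes were described by composition and by motifs. RefSeq windows of 300 bases (250 before to 50 after the start, GRCm38.p6) were given for 27 of the 32 genes, as 28 promoters. Their median number of CG pairs was 17, against 7 over all 32851 promoters, and 85.7% held 10 or more CG pairs, against 43.5% of all. The 32851 promoters were not limited to genes tested here. A trait of expressed genes in general therefore cannot be told apart from one of these genes. The core element AGGTCA of nuclear receptors, searched on both strands, occurred in 4 of the 28 (*Acadm*, *Acadvl*, *Cpt1a* and *Echs1*) and in 16.3% of all promoters. A direct repeat of this element with 1 base between, the form bound by PPAR and RXR, occurred exactly in 0 of the 28 and in 0.0396% of all, and with at most 1 mismatch in each copy in 2 of the 28 (*Etfa* and *Slc25a20*) and 2.40% of all. The element TCAAGGTCA of estrogen related receptors, which contains that element, was in 0 of the 28 and 0.423% of all, and the E-box CACGTG in 0 and 7.15%. These are matches of letters in short windows and not bound sites. The windows of *Cpt1a* (chr19:3323051-3323350, plus strand) and *Etfa* (chr9:55512194-55512493, minus strand) are shown since the first gates mitochondrial entry and the second was the gene whose groups did not overlap. Capitals mark AGGTCA in *Cpt1a* and the inexact repeat in *Etfa*, both on the strand opposite to the gene.

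Cpt1a: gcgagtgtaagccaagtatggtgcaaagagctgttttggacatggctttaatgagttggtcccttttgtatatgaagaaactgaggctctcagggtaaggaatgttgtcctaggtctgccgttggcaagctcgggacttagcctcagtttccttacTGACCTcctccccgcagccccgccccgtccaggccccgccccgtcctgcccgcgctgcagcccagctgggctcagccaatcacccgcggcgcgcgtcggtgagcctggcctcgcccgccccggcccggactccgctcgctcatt
Etfa: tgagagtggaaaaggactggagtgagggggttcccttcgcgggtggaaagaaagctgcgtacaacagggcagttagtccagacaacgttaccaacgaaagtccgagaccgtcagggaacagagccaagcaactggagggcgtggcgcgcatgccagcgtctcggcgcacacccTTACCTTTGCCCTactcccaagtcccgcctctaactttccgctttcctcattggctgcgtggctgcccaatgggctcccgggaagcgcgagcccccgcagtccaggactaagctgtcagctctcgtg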

How the data were processed

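Bulk RNA-Seq was performed by the study on FCGR4+ and FCGR4- eWAT macrophages of 4 mice. The authors mapped the read pairs to mm10 with STAR and counted them per gene with featureCounts 1.6.3 on GENCODE M18, and the deposited values are these raw counts for 54146 genes. By the file's own record, a pair with several mapping places was counted at all of them, strand was ignored, and pairs on exons shared by genes were left out. No per-sample column was left out. Total counts were 35992794 to 66856746 per library, and the floor of 3 counts covers counting error only.

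The 17095 genes that reached 10 counts in 4 or more libraries were normalized by TMM and tested in edgeR 4.0.16 (R 4.3.3) with the quasi-likelihood test, mouse as a block, two-sided, with Benjamini-Hochberg adjustment over all genes and a threshold of 0.1. SE is the log2 fold change divided by the root of the F statistic, and 95% intervals use its degrees of freedom. Ratios within a mouse were taken on log2 CPM (prior count 2). DESeq2 1.42.0 with the same model was an alternative. The mouse number pairs the libraries since both come from 1 animal, and the deviations of same-mouse libraries correlated at 0.291 to 0.428. No libraries of a population were duplicates (chi-square per degree of freedom of at least 83.6). The fits were tested on a single set of simulated data, drawn with the dispersions that edgeR had estimated. Unchanged genes made up 10 of the 136 calls of edgeR and 64 of the 215 calls of DESeq2. Calls made by DESeq2 alone were thus the less certain in this setting. Of the 2-fold changes put in, edgeR recovered 41% and DESeq2 61%, so a gene that edgeR did not call can have changed. As the dispersions were those of edgeR, this run cannot rank the tools on the measured data.

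The 32 genes, the lists of other genes and the markers were chosen with earlier results of these data known. Values per library are given for genes passing in either tool, the 3 highest and 3 lowest fold changes, *Cpt1a*, *Acsl1*, *Acadvl*, *Hadha*, the regulators and *Ucp2*, and other genes of the pathway are named where they pass in either tool or have the 2 highest or 2 lowest fold changes, apart from 1 gene that is not reported here. Overlaps come from the deposited coordinates, and shared 50-base words from GENCODE M21 transcripts of the same build. Promoters are from RefSeq. Alternatives were no block, RLE factors, library size alone, other filters, a threshold of 0.05, the newer quasi-likelihood method, each ID prefix alone and leaving out each mouse.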

Additional observations from a re-analysis of the deposited data

Results flagged for a closer look

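In a group of 4 values, *Slc25a20* had 1 mouse far from the others. Its log2 ratio of FCGR4+ over FCGR4- cells was -0.28 in mouse 3 and -0.01, 0.02 and 0.04 in mice 1, 2 and 4, so that the gap to the nearest value was 0.837 of the whole range, above Dixon's critical value for 4 samples. *Slc25a20* itself measured 58.8 CPM in FCGR4+ and 71.3 CPM in FCGR4- cells of mouse 3. Of the 31 genes examined in this way, 1.55 would be expected to pass by chance.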

How the results depend on the processing

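The count of fatty acid oxidation genes called was 0 higher and 0 lower under every alternative run. The replicate block was kept since the mouse pairs the libraries. With no replicate block, the genes called over all genes were 1 higher and 47 lower, against 14 and 203 with it, and *Acsl3* (0.023) and *Cpt1a* (0.035) turned to a positive log2 fold change. The number of all genes called higher and lower was 2 and 74 at a threshold of 0.05, 192 and 832 with DESeq2, 57 and 572 with the newer quasi-likelihood method, 159 and 895 with no filter, 7 and 108 in mice 1 and 2 alone, and 2 to 9 and 76 to 153 without 1 mouse. It was 8 higher with library size alone and 61 lower in mice 3 and 4 alone. Of the other pathway genes, DESeq2 called 2 higher and 3 lower, the newer method 2 lower, and the fit with no filter 4 higher and 2 lower.

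The median log2 fold change of the 31 genes fell to -0.016 with library size alone, under which that of all genes was -0.09, and to -0.013 in mice 3 and 4 alone. It was 0.049 to 0.084 without 1 mouse, and 0.077 without the 6 genes that overlap or share sequence with another by 10% or more, a setting chosen after seeing the data.

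Directions of single genes changed. Library size alone lowered the 31 genes by nearly the same amount, along with the median of all genes given above, so the signs it turned say nothing of single genes. With it, *Acaa1a* (-0.016), *Acaa2* (-0.067), *Acadm* (-0.0053), *Acot2* (-0.025), *Acsl5* (-0.012), *Etfb* (-0.019) and *Hadha* (-0.070) turned negative. In mice 1 and 2 alone, the values of *Acox3* (0.14), *Acsl1* (0.14), *Acsl3* (0.23), *Cpt1a* (0.25), *Cpt2* (0.080), *Crat* (0.053), *Etfdh* (0.011), *Ppargc1b* (0.26) and *Slc25a20* (0.0034) turned positive and that of *Etfb* (-0.19) negative. In mice 3 and 4 alone, *Acaa2* (-0.0075), *Acsl5* (-0.16), *Hadha* (-0.27), *Hsd17b4* (-0.013), *Ppargc1a* (-0.017) and *Ucp2* (-0.048) turned negative. Without 1 mouse, the range crossed 0 for *Acot2* (-0.021 to 0.16), *Acsl1* (-0.15 to 0.085), *Acsl3* (-0.15 to 0.098), *Acsl4* (-0.027 to 0.37), *Cpt1a* (-0.15 to 0.080), *Etfb* (-0.099 to 0.20), *Hadha* (-0.070 to 0.17), *Ppargc1a* (-0.20 to 1.91) and *Slc25a20* (-0.090 to 0.0056). The cause was not tested. Counts not divided by gene length put *Acsl5* at 52.3% of the synthetase sum in FCGR4+ and 51.9% in FCGR4- cells, and *Acsl1* at 14.9% and 16.1%.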
